A study of Mus musculus with 36 samples.

Results

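DNA replication and S phase genes were read across mouse CD8 T cell arrays that carried 1 of 6 hairpins under 1 of 2 tissue labels. The set holds 41 genes, chosen by name as licensing factors, helicase activators, polymerases, clamp and clamp loader subunits, nucleotide enzymes and G1/S regulators, of 18193 genes with a probe set on the array. A probe set is a group of short oligonucleotides meant together to read the RNA of a gene, and the brightest probe set over all arrays stood for each gene. The array annotation used here gives a probe set for 40 of the 41, and Chaf1a was not analysed here. RNA came from OT-I cells, which are CD8 T cells with a transgenic receptor for an ovalbumin peptide, after transduction with a short hairpin RNA (shRNA) and transfer into mice bearing B16, a mouse melanoma line. The hairpins targeted Ppp2r2d, Egr2, Ptpn2, Arhgap5, Alk or, as the control, LacZ, a bacterial gene that mouse cells lack. Under each hairpin 3 arrays are labelled tumor and 3 spleen, which makes 36 arrays in 12 groups. Every group shares the OT-I receptor, a transduced hairpin and a tumor-bearing host. The age and strain of the host, the time after transfer, the number of hairpins used for a gene and the number of animals pooled for an array were not stated in the labels. Whether a group's arrays stem from different animals was not stated either, so p-values measure the spread between arrays, which may be technical.

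A cell copies its genome once per division. In G1 the origin recognition complex, Cdc6 and Cdt1 load the ring-shaped MCM helicase onto origins, which licenses them. At the start of S phase Cdc45 and the GINS complex join the rings and Mcm10 helps to switch them on, after which polymerase alpha with primase begins each strand, the clamp loader places the PCNA clamp, and polymerases delta and epsilon extend. E2F transcription factors, held back by retinoblastoma family proteins until cyclin E and its kinase act, drive many of these genes. Naive T cells rest in G0 and activated CD8 T cells divide rapidly, so the set is commonly read as a mark of cycling cells in this lineage.

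The proximal promoters are shown first because E2F words are the sequence feature these genes are known to share. RefSeq promoter windows (assembly GRCm38.p6, 250 bases before to 50 after a gene's start) were found for 34 of the 41 genes, in 39 windows. Prim2, Gins1, Gins2, Pole, Mcm4, Gmnn and Ccne2 were not in that table. The search used the E2F words TTTCCCGC, TTTCGCGC, TTTGCCGC and TTTGGCGC and the word CCAAT on both strands, and a word could overlap another. The 4 promoters below belong to the genes with an E2F word whose levels differed most between the tissue labels. Each is written 5′ to 3′ on the gene's strand with the E2F words in capitals.
Cdc6, chr11:98907901-98908200 (+): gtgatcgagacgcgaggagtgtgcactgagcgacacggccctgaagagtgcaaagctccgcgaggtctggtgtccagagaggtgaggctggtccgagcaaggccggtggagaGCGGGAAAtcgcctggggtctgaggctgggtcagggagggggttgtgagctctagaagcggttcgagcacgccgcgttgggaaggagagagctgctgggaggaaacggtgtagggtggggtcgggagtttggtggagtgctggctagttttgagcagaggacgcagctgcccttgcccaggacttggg
Pola1, chrX:93632106-93632405 (-): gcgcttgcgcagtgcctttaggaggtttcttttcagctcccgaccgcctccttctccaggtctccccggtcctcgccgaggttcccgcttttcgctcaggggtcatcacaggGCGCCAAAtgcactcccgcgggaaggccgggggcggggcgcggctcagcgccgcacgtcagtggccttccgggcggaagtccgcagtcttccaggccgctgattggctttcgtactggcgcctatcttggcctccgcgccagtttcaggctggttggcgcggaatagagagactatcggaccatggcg
Orc1, chr4:108579204-108579503 (+): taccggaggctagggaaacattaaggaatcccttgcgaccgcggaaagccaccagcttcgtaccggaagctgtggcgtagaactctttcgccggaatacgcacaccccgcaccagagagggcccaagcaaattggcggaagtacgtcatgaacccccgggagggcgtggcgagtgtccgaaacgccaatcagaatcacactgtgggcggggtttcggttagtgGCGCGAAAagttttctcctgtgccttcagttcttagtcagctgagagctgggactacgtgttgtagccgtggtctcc
Mcm5, chr8:75109259-75109558 (+): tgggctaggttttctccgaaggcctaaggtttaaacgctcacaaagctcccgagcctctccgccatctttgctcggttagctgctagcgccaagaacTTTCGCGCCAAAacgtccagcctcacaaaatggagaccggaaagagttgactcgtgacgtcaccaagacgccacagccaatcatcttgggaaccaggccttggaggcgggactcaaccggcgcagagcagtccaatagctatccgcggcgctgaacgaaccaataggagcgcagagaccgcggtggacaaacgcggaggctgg
The word began at position -138 from the gene's start in Cdc6 and in Pola1, and at -27 in Orc1. In Mcm5, 2 words on opposite strands overlapped, beginning at -153 and -149.

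An E2F word stood in the windows of 14 of the 34 genes (41.2%), against 3.81% of the 14452 tested genes with a window. The 5 licensing or loader genes Mcm3, Mcm5, Mcm6, Mcm7 and Rfc3 held more than 1 word. CCAAT stood in 19 of the 34 (55.9%), against 42% of tested genes. A list of 22 mitosis genes, of which 19 had a window, held an E2F word in 5.26% and CCAAT in 73.7%. These matches describe the letters in a short window and no binding was measured. The median difference between the tissue labels was -1.98 on the log2 scale for the 14 measured genes with a word and -2.01 for the 19 without.

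The tissue labels have to be read with care, because marker genes stand against them. A list of 9 pigment cell genes, those that define the B16 lineage, averaged -1.52 to -0.29 on the deposited log2 scale in the 18 arrays labelled tumor, against 2.14 to 3.94 in the 18 labelled spleen, and 8 of the 9 were lower in labelled tumor. All 9 macrophage genes were lower as well, and averaged -2.37 to -0.70 in labelled tumor against 1.73 to 4.62 in labelled spleen. All 5 measured B cell genes were higher in labelled tumor. T cell genes averaged 4.47 to 6.88 in labelled tumor and 5.82 to 6.71 in labelled spleen. The groups are therefore called labelled tumor and labelled spleen throughout, and every direction below is that of the labels. In such mixed RNA, fewer cells of a type and less RNA per cell cannot be told apart, and the part of other cells in the differences below was not tested. The Ptpn2 array 1 labelled tumor stood apart, with a best correlation of 0.905 to any other array and a T cell mean of 4.47. Of the 5 targeted genes, only Ppp2r2d in labelled spleen was called against LacZ (-1.37 ± 0.42, limma adjusted p = 0.0286).

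Levels of the replication genes were lower in the arrays labelled tumor than in those labelled spleen for nearly the whole set. Averaged over the 6 transductions, 39 of the 40 genes were called lower in labelled tumor and 0 higher, with limma and a Benjamini-Hochberg threshold of 0.05 over the whole array. Of all 18193 genes, 33.1% were called lower and 37.6% higher in the same comparison. The median difference of the 40 genes was -2.03 on the log2 scale, against 0.13 for all genes. A fall of at least 1 on the log2 scale was seen in 38 of the 40 and in 14.2% of all genes, and a fall of at least 3 in 7 and in 2.17%. No overlap between the 18 arrays labelled tumor and the 18 labelled spleen was seen for 30 of the 40 genes, and for 6.51% of all genes in that direction. A sign of RNA quality moved with the labels: the Gapdh control probe set at the 3′ end exceeded that at the 5′ end by 0.86 to 1.14 (log2) on the arrays labelled tumor other than Ptpn2 array 1, where the excess was 2.94, against 0.25 to 0.83 on the arrays labelled spleen other than LacZ. Between the LacZ groups it overlapped, with 0.91 to 1.14 in labelled tumor and 0.83 to 1.39 in labelled spleen. In that comparison 38 of the 40 genes were called lower, against 18.9% of all genes. The part of RNA quality in these differences was not tested.

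The mean level of the 40 genes on each array showed the same split. It lay between 2.09 and 3.26 (median 2.69) on the arrays labelled tumor and between 4.39 and 5.41 (median 4.83) on those labelled spleen, with no overlap. Among groups labelled tumor the mean was 2.90 ± 0.05 for the Ppp2r2d hairpin, 2.67 ± 0.53 for Egr2, 2.76 ± 0.33 for Ptpn2, 2.27 ± 0.16 for Arhgap5, 2.57 ± 0.27 for Alk and 2.71 ± 0.46 for LacZ (SD, n = 3 arrays). Among groups labelled spleen it was 4.80 ± 0.04 for Ppp2r2d, 4.84 ± 0.28 for Egr2, 4.92 ± 0.16 for Ptpn2, 4.81 ± 0.12 for Arhgap5, 4.79 ± 0.13 for Alk and 4.96 ± 0.52 for LacZ. The pooled SD between arrays of a group was 0.30.

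**Figure D1:**
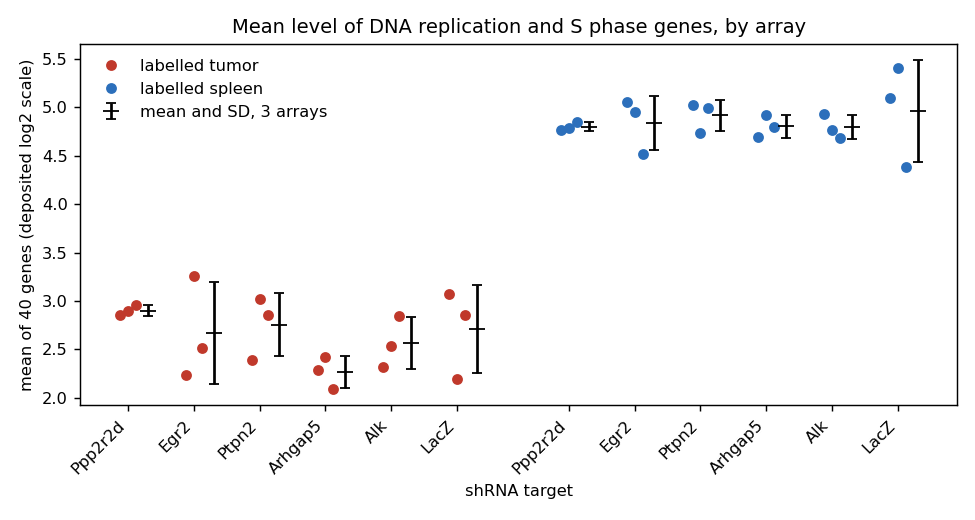
Mean level of the 40 replication genes on each of 36 arrays (deposited log2 scale, vertical axis) by shRNA target (horizontal axis), labelled tumor in red on the left and labelled spleen in blue on the right, with the mean and SD of 3 arrays beside each group. The arrays labelled tumor end at 3.26 and those labelled spleen start at 4.39.

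Licensing genes made up 11 of the 40, and 10 of them were called lower in labelled tumor, with a median difference of -1.92. Cdc6, the loader of the MCM ring, had the largest measured difference of the set. Its level ran from -1.83 to 1.52 (median -0.53) in labelled tumor, against 3.39 to 4.89 (median 4.11) in labelled spleen, a difference of -4.48 ± 0.18 (SE, adjusted p = 6.71e-20). The ranges were far apart. Its mean in labelled tumor stood at the 46th percentile of all genes, and Tyms, Mcm10, Orc1 and Cdc45 were likewise below the 50th there, against 0 of the 40 genes in labelled spleen. No detection call was used here, so whether these 5 stood above background in labelled tumor was not tested. Cdt1, its partner in loading, ran from 4.54 to 6.29 (median 5.61) in labelled tumor, against 5.14 to 6.41 (median 5.80) in labelled spleen. The ranges overlapped over most of their length, and the difference of -0.26 ± 0.13 was not called (adjusted p = 0.0749). With each array centred on its gene median the sign of Cdt1 turned (0.17, adjusted p = 0.21), and another Cdt1 probe set gave a called -0.40 (adjusted p = 0.0133).

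The 6 subunits of the MCM ring, which travel as 1 complex, fell by unequal amounts. Mcm5 changed by -2.77 ± 0.16, Mcm2 by -2.05 ± 0.16, Mcm3 by -1.92 ± 0.13, Mcm6 by -1.77 ± 0.11, Mcm7 by -1.53 ± 0.13 and Mcm4 by -1.04 ± 0.13. All 6 were called, and only Mcm4 had overlapping labels. Of the origin recognition subunits, Orc1, the subunit known to be made and destroyed within the cycle, changed by -2.82 ± 0.19 and Orc6 by -1.30 ± 0.16. Gmnn, the inhibitor of Cdt1 that prevents origins from being licensed again, changed by -2.02 ± 0.12 although Cdt1 was not called.

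Helicase activators had the largest median difference of any role, -3.72, and all 5 were called lower. Mcm10 ran from -2.49 to 1.01 (median -0.38) in labelled tumor, against 3.26 to 4.25 (median 3.68) in labelled spleen, a difference of -4.27 ± 0.15 (adjusted p = 6.41e-22). Cdc45, the partner of the helicase at every fork, had the smallest adjusted p of the set (1.8e-23). Its difference was -4.27 ± 0.12, from levels of -0.998 to 1.39 (median 0.11) in labelled tumor and 3.83 to 4.76 (median 4.45) in labelled spleen. Neither gene had overlapping labels. The GINS subunits were uneven, with -3.72 ± 0.16 for Gins1, -3.21 ± 0.11 for Gins2 and -1.74 ± 0.14 for Gins3. Gins3, the smallest fall of the role, ran from 0.55 to 2.34 (median 1.30) in labelled tumor, against 2.23 to 3.86 (median 3.01) in labelled spleen, and the ranges just overlapped.

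The clamp and its loader were all called lower, with a median of -2.07, but the clamp itself moved least. Rfc3, a loader subunit, ran from 0.32 to 3.24 (median 1.40) in labelled tumor, against 3.44 to 4.45 (median 4.18) in labelled spleen, a difference of -2.63 ± 0.15. Rfc5 changed by -2.16 ± 0.11 and Rfc4 by -1.98 ± 0.11. Pcna, the sliding clamp, ran from 3.77 to 7.20 (median 6.38) in labelled tumor, against 6.45 to 7.72 (median 7.001) in labelled spleen. Its difference was -0.70 ± 0.18 (adjusted p = 0.00109), and the lowest value came from the Ptpn2 array 1 labelled tumor, without which it was -0.54 (adjusted p = 9.1e-05). With arrays centred on their gene median the call for Pcna was lost (-0.27, adjusted p = 0.173).

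All 7 polymerase and primase genes were called lower, with a median of -2.01. Pole, the catalytic subunit of the leading strand polymerase, ran from 0.16 to 2.14 (median 1.25) in labelled tumor, against 3.73 to 5.35 (median 4.39) in labelled spleen, a difference of -3.10 ± 0.14. Its partner subunit Pole2 changed by -1.30 ± 0.11. The same unevenness was seen in polymerase alpha, where catalytic Pola1 changed by -2.94 ± 0.14 and accessory Pola2 by -1.10 ± 0.14. Pola2 ran from 0.87 to 3.26 (median 2.24) in labelled tumor, against 2.78 to 4.19 (median 3.33) in labelled spleen, and the ranges overlapped. The primase subunits changed by -2.01 ± 0.12 for Prim1 and -2.09 ± 0.11 for Prim2, and Pold1, the catalytic subunit of the lagging strand polymerase, changed by -1.50 ± 0.13.

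In lagging strand processing, Lig1, the ligase that joins Okazaki fragments, ran from 1.80 to 3.05 (median 2.58) in labelled tumor, against 4.48 to 5.90 (median 5.27) in labelled spleen, a difference of -2.73 ± 0.13. Fen1, the flap nuclease that acts before it, changed by -1.30 ± 0.13. Rpa2, part of the single-strand binding complex, ran from 3.31 to 5.06 (median 4.40) in labelled tumor, against 4.78 to 5.90 (median 5.40) in labelled spleen, a difference of -1.01 ± 0.11. All 3 were called, and Fen1 and Rpa2 had overlapping labels.

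The 5 genes of nucleotide supply were called lower with a median of -2.27. Tk1, the salvage kinase for thymidine whose level is tied to S phase, ran from 0.11 to 2.39 (median 1.16) in labelled tumor, against 4.36 to 5.64 (median 5.31) in labelled spleen, a difference of -3.89 ± 0.17. The ribonucleotide reductase subunits differed, with -2.73 ± 0.12 for Rrm1 and -1.20 ± 0.14 for Rrm2. Rrm2 ran from 4.45 to 6.54 (median 5.39) in labelled tumor, against 6.19 to 7.55 (median 6.51) in labelled spleen. Its other probe sets gave -3.29 and -3.70, so the smaller value belongs to the brightest probe set and not to every reading of the gene. Dut, which clears dUTP, changed by -2.27 ± 0.15 and Tyms, which makes thymidylate, by -2.02 ± 0.10.

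The 3 regulators of the G1/S step were all called lower with no overlap between the labels. E2f1 ran from -0.38 to 1.71 (median 0.76) in labelled tumor, against 2.96 to 4.17 (median 3.46) in labelled spleen, a difference of -2.79 ± 0.13. The cyclin E genes changed by -2.51 ± 0.19 for Ccne2 and -1.66 ± 0.14 for Ccne1. Ccne1 ran from 1.79 to 3.28 (median 2.32) in labelled tumor, against 3.37 to 4.76 (median 4.13) in labelled spleen. Of the chromatin genes, Uhrf1, which carries DNA methylation through replication, ran from 3.60 to 5.23 (median 4.27) in labelled tumor, against 6.14 to 7.29 (median 6.42) in labelled spleen, a difference of -2.04 ± 0.12. Chaf1b, a subunit of the factor that puts histones on new DNA, ran from 1.54 to 2.61 (median 1.87) in labelled tumor, against 2.91 to 3.86 (median 3.69) in labelled spleen, a difference of -1.57 ± 0.11.

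**Figure D2:**
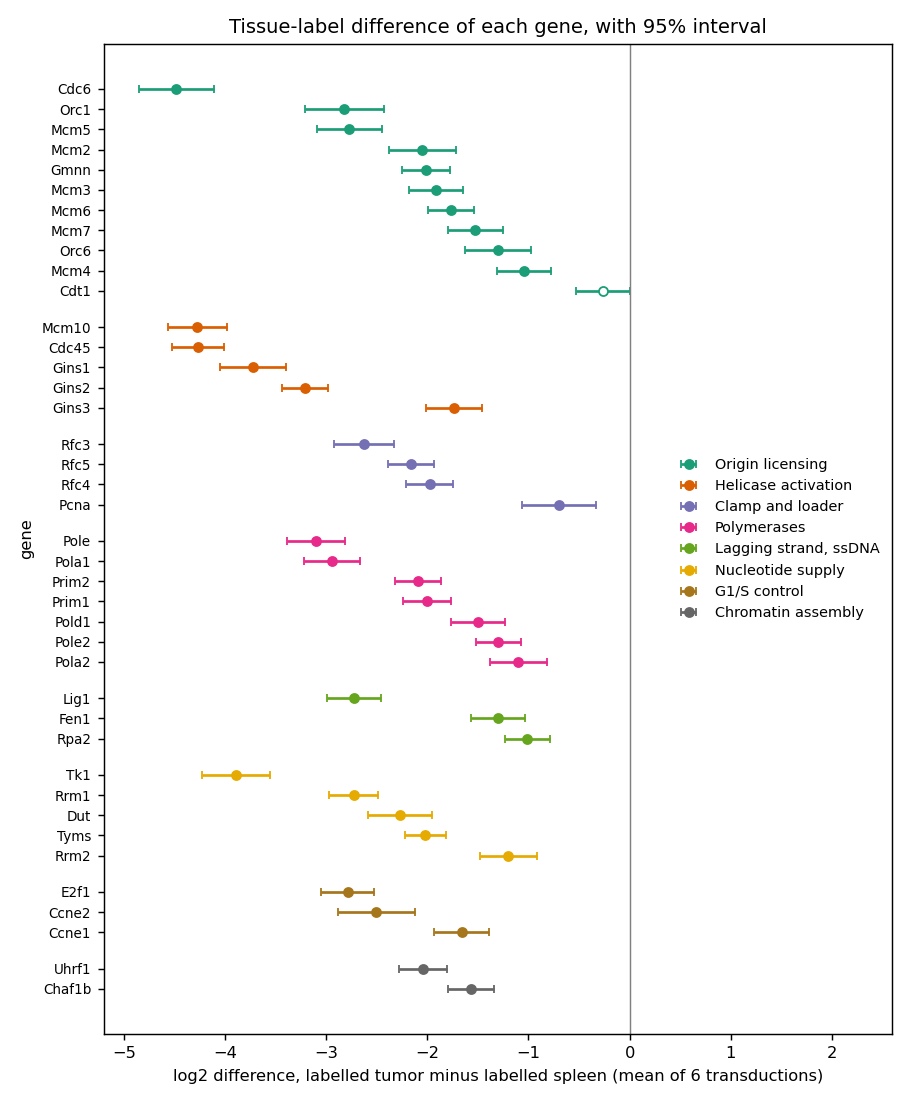
Log2 difference, labelled tumor minus labelled spleen, averaged over 6 transductions (horizontal axis) for each of 40 genes (vertical axis), grouped and coloured by role, with 95% intervals of the limma fit. Filled points were called, and the open point, Cdt1 at -0.26 (0.17 with arrays centred on their gene median), is the only one that was not.

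By mean over all arrays, the brighter of the 40 genes had smaller falls. The 10 brightest had a median difference of -1.41 and 5 of them had labels apart. The 10 dimmest had a median of -2.88 and 9 had labels apart. That mean includes the arrays labelled tumor, so a larger fall itself makes a gene dimmer and the order is partly built in. The part of brightness in these differences was not tested. Over all 87 probe sets of the 40 genes, 75 were called lower, 3 higher and 9 were not called. Among the 66 with a mean level above 1, 65 were lower. Of the genes with several probe sets above that level, Rrm2 and Fen1 were the only 2 whose probe sets differed by more than 1, with -1.30 for the brightest Fen1 probe set and -2.39 for the other.

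**Figure D3:**
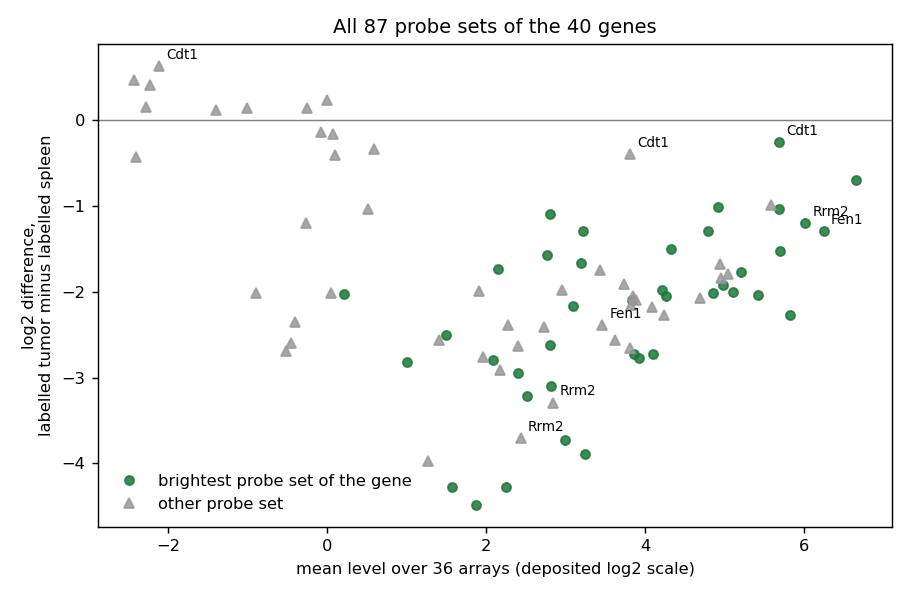
Log2 difference, labelled tumor minus labelled spleen (vertical axis), against the mean level over 36 arrays on the deposited log2 scale (horizontal axis) for all 87 probe sets, with the brightest of each gene as circles and the others as triangles. Above a level of 1 all but 1 of 66 probe sets were called lower. The exception was the brightest of Cdt1, with -0.26 at a level of 5.68. All values above 0 came from probe sets below a level of 1.

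Each transduction showed the fall on its own arrays. The count of genes called lower was 33 for the Ppp2r2d hairpin, 36 for Egr2, 38 for Ptpn2, 38 for Arhgap5, 38 for Alk and 38 for LacZ, with 0 called higher in each. The share of all genes called lower was 14.5% for Ppp2r2d, 15.9% for Egr2, 25.1% for Ptpn2, 21.6% for Arhgap5, 20% for Alk and 18.9% for LacZ, and the share called higher was 8.1% for Ppp2r2d, 10.5% for Egr2, 24.1% for Ptpn2, 10.7% for Arhgap5, 33.2% for Alk and 6.31% for LacZ. The median difference of the 40 genes ranged from -1.90 with the Ptpn2 hairpin to -2.28 with Arhgap5, and was -2.17 with LacZ. The LacZ arrays had a median of -0.48 over all genes, the lowest of the 6, so the replication genes there stood 1.68 below all genes, against 2.31 with Arhgap5 and 2.40 with Alk. Cdt1 was called in none of the 6 and Pcna only with Ptpn2, where the array that stands apart lies. With the Ppp2r2d hairpin Mcm4, Orc6, Pola2, Fen1 and Rpa2 also missed the threshold, with Egr2 Mcm4 and Pola2, and with Ptpn2 Rrm2 (-0.70, adjusted p = 0.0819). At the other end Cdc6, Mcm10 and Cdc45 fell by more than 3 in every transduction. Cdc6 differed by -3.84 to -5.61, Mcm10 by -3.35 to -5.76 and Cdc45 by -3.54 to -5.33, and the largest fall of each was with the Arhgap5 hairpin.

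**Figure D4:**
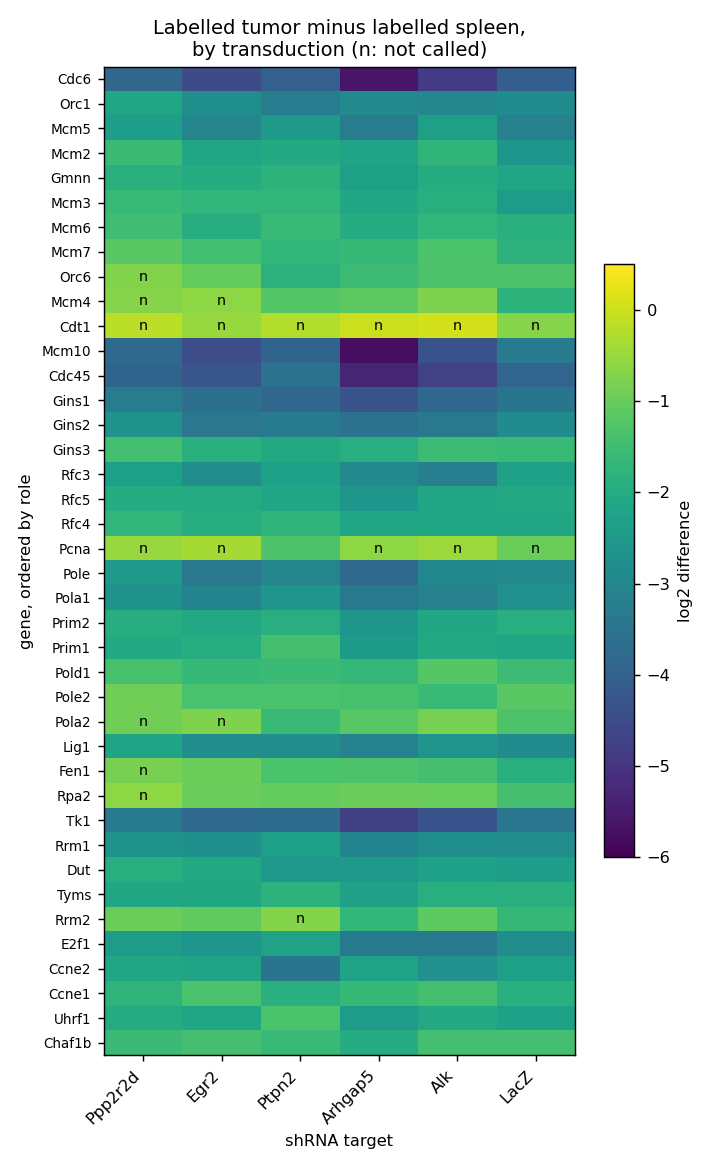
Log2 difference, labelled tumor minus labelled spleen, of 40 genes (rows, ordered by role) in 6 transductions (columns), with n marking values that were not called. Cdt1 was called in no column, Pcna in 1, and the darkest cells are Mcm10, Cdc6 and Cdc45 with the Arhgap5 hairpin.

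Each hairpin was then set against LacZ under each label. These comparisons share the LacZ arrays and are not independent. In labelled tumor 1 of 40 genes was called, in 1 of the 5 comparisons: Mcm10 was lower with the Arhgap5 hairpin. Its level was -2.49, -1.59 and -1.97 with that hairpin, against 1.01, -0.31 and 0.71 with LacZ. All 3 hairpin arrays lay below all 3 LacZ arrays. The difference was -2.48 ± 0.35 (limma adjusted p = 0.000151), and 0.297% of all genes were called lower in that comparison. Whether Mcm10 stood above background in labelled tumor was not tested. Arhgap5 itself, the targeted gene, differed by -0.47 ± 0.35 in labelled tumor and was not called (adjusted p = 1). Another Mcm10 probe set gave -1.29 (adjusted p = 0.236) and the third, the dimmest, -0.29 (adjusted p = 1), so neither was called. The mean of the 3 probe sets gave -1.35 (adjusted p = 0.0169). Against the mean of the other 4 hairpins in place of LacZ the difference was -1.55 (adjusted p = 0.00178).

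The next largest differences with the Arhgap5 hairpin were not called. Cdc45 read -0.67, -0.92 and -0.998 with the hairpin, against 1.18, -0.31 and 0.32 with LacZ, with no overlap (-1.26 ± 0.31, adjusted p = 0.0632). Cdc6, described above as the ring loader, read -1.83, -1.09 and -1.31 with the hairpin, against 0.99, -1.10 and 0.62 with LacZ, which overlapped at 1 array (-1.58 ± 0.45, adjusted p = 0.211). Pole read 0.16, 0.91 and 0.53 with the hairpin, against 2.14, 0.99 and 2.01 with LacZ, again with no overlap (-1.18 ± 0.35, adjusted p = 0.271). In each of these 4 genes LacZ array 2 was the lowest of its group. Of the 40 genes 36 had a negative difference, against 42.5% of all genes, and the median was -0.39 against 0.06 for all genes. At an unadjusted p under 0.05 there were 9 of the 40, all lower, and 4.55% of all genes. T cell genes averaged 5.88 to 6.10 on the Arhgap5 arrays and 5.90 to 6.26 on the LacZ arrays labelled tumor. Erythroid genes averaged -2.54 to -1.87 on the Arhgap5 arrays, the lowest of the groups labelled tumor, and -1.60 to -0.13 on the LacZ arrays, and neutrophil genes -2.20 to -1.66 with Arhgap5 and -2.34 to -0.37 with LacZ. No gene of these lists (5 and 4 measured) was called, with median differences of -1.02 and -0.52, and their part in the Arhgap5 values was not tested. With array weights 13 genes were called, where 6.33% of all genes were called. Without LacZ array 2 labelled tumor 4 were called, and the share of all genes in that fit is not given here.

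The other 4 hairpins gave 0 called genes in labelled tumor, where 0.995% of all genes were called with Ppp2r2d, 0.0275% with Egr2, 0.764% with Ptpn2 and 0.0055% with Alk. At an unadjusted p under 0.05 there was 1 of the 40 with Ppp2r2d, 3 with Egr2, 4 with Ptpn2 and 4 with Alk. With the Ppp2r2d hairpin the largest differences were 0.94 ± 0.27 for Rpa2 (adjusted p = 0.0885), 0.62 ± 0.39 for Orc6 and 0.60 ± 0.36 for Rfc3. With Egr2 they were -1.19 ± 0.35 for Mcm10 (adjusted p = 0.771), -0.86 ± 0.35 for Pole and -0.64 ± 0.45 for Cdc6. With Ptpn2 they were -0.74 ± 0.35 for Mcm10 (adjusted p = 0.246), 0.71 ± 0.28 for Prim1 and -0.71 ± 0.46 for Ccne2, which was 0.051 without the Ptpn2 array that stands apart. With Alk they were -1.23 ± 0.35 for Mcm10 (adjusted p = 0.123), -1.001 ± 0.45 for Cdc6 and -0.86 ± 0.32 for E2f1. Without LacZ array 2, 4 genes were called with the Alk hairpin, and without Ptpn2 array 2, 3 were called with the Ptpn2 hairpin. The share of all genes in those fits is not given here, so these counts are not read as results about the 40 genes. Mcm10 was below its LacZ mean with all 5 hairpins, with the same 3 LacZ arrays in each comparison. Against the mean of the other 4 hairpins in place of LacZ, Mcm10 differed by 0.067 with Egr2, 0.64 with Ptpn2 and 0.019 with Alk.

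In labelled spleen 0 of the 40 genes were called with any of the 5 hairpins by limma, although 12.8% of all genes were called with Ppp2r2d, 3.23% with Egr2, 9.58% with Ptpn2, 8.89% with Arhgap5 and 7.4% with Alk. At an unadjusted p under 0.05 there were 2 of the 40 with Ppp2r2d, 2 with Egr2, 0 with Ptpn2, 5 with Arhgap5 and 1 with Alk. The median differences of the 40 genes lay between -0.02 with Ptpn2 and -0.20 with Alk, and those of all genes between -0.15 with Ptpn2 and -0.24 with Ppp2r2d. Rrm2 (-0.75 ± 0.34), Mcm4 (-0.74 ± 0.32) and Tk1 (-0.70 ± 0.40) differed most with Ppp2r2d, and Mcm4 (-0.82 ± 0.32), Fen1 (-0.70 ± 0.32) and Rrm2 (-0.58 ± 0.34) with Egr2. With Ptpn2 the largest were Fen1 (-0.59 ± 0.32), Rfc3 (0.57 ± 0.36) and Rrm2 (-0.55 ± 0.34). Mcm4 was again among the largest with Arhgap5 (-0.78 ± 0.32), beside Rrm2 (-0.71 ± 0.34) and Ccne1 (-0.71 ± 0.33), and with Alk (-0.79 ± 0.32), beside Ccne1 (-0.66 ± 0.33) and Mcm5 (-0.64 ± 0.39). The 5 comparisons share the same LacZ arrays. On these Mcm4 read 7.02, 7.53 and 5.89, against 5.62 to 6.41 on the hairpin arrays labelled spleen. Over both labels the standard errors ran from 0.25 to 0.47. Without LacZ array 3 labelled spleen 3 genes were called with Arhgap5, 2 with Ppp2r2d, 2 with Alk, 1 with Egr2 and 1 with Ptpn2. The share of all genes in those fits is not given here, so these counts are not read as results about the 40 genes.

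The tissue difference of each hairpin was also compared with that of LacZ. Of the 40 genes 1 was called, Mcm10 with the Arhgap5 hairpin, whose tissue difference was more negative than with LacZ (-2.42 ± 0.50, limma adjusted p = 0.0128), where 0.824% of all genes were called in that direction. In labelled spleen Mcm10 read 3.75 ± 0.19 with Arhgap5 and 3.82 ± 0.51 with LacZ (SD, n = 3), so the groups parted in labelled tumor. The call was lost without LacZ array 1 labelled tumor (adjusted p = 0.0679), with the probe set of the next highest level (-1.31, adjusted p = 0.143) and with the arrays of those groups alone in the fit (adjusted p = 0.0659). With the other 4 hairpins 0 genes were called by limma, where 0.786% of all genes were called with Ppp2r2d, 0% with Egr2, 17.3% with Ptpn2 and 25.4% with Alk. At an unadjusted p under 0.05 there were 3 of the 40 with Ppp2r2d, 3 with Egr2, 2 with Ptpn2 and 2 with Alk. The largest of these differences were 1.14 ± 0.45 for Mcm4, 1.08 ± 0.45 for Fen1 and 1.00 ± 0.57 for Mcm2 with Ppp2r2d, and 1.21 ± 0.45 for Mcm4, -1.12 ± 0.50 for Mcm10 and 0.97 ± 0.45 for Fen1 with Egr2. With Ptpn2 they were -1.14 ± 0.64 for Ccne2, 0.98 ± 0.48 for Rrm2 and 0.96 ± 0.40 for Uhrf1, and with Alk 1.05 ± 0.45 for Mcm4, -1.02 ± 0.50 for Mcm10 and -0.95 ± 0.51 for Rfc3. All of these differences share the LacZ arrays of both labels.

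A test for any difference among the 6 transductions in labelled tumor (limma moderated F) called 4 of the 40 genes, or 10%, against 11% of all genes, which is the background share. They were Mcm10 (adjusted p = 0.00058), Cdc45 (0.00149), Pole (0.0428) and Cdc6 (0.043). In all 4 the Arhgap5 hairpin had the lowest group mean: -2.02 ± 0.45 for Mcm10, -0.86 ± 0.17 for Cdc45, 0.53 ± 0.37 for Pole and -1.41 ± 0.38 for Cdc6 (SD, n = 3). The highest mean was with a different construct by gene: 0.47 ± 0.69 with LacZ for Mcm10, 0.87 ± 0.46 with Ptpn2 for Cdc45, 1.89 ± 0.10 with Ppp2r2d for Pole and 0.28 ± 1.12 with Ptpn2 for Cdc6. The 4 genes stayed under the threshold when LacZ was left out (adjusted p = 0.00364, 0.000892, 0.0478 and 0.0442). In that test Uhrf1 (0.0392), lowest with Arhgap5, and E2f1 (0.0455), lowest with Alk, passed as well. The share of all genes called without LacZ is not given here, so these calls are not read as results about the 40 genes. With only the arrays labelled tumor in the fit 0 genes were called. Without Egr2 array 2, 9 were called, and the share of all genes in that fit is not given here. With array weights 29 were called, where 62.4% of all genes were. Of the 40 genes, 28 had their lowest labelled tumor mean with Arhgap5, against 19.8% of all genes. In labelled spleen the same test called 0 of the 40 by limma, against 12.2% of all genes. The lowest mean there was spread over the groups. It lay in Arhgap5 for 10 genes (25%, against 23.1% of all genes) and in Ppp2r2d for 8 (20%, against 17.7%). Egr2 had 8 (20%, against 8.84%) and Alk 8 (20%, against 16%). LacZ had 5 (12.5%, against 21.5%) and Ptpn2 1 (2.5%, against 12.8%).

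**Figure D5:**
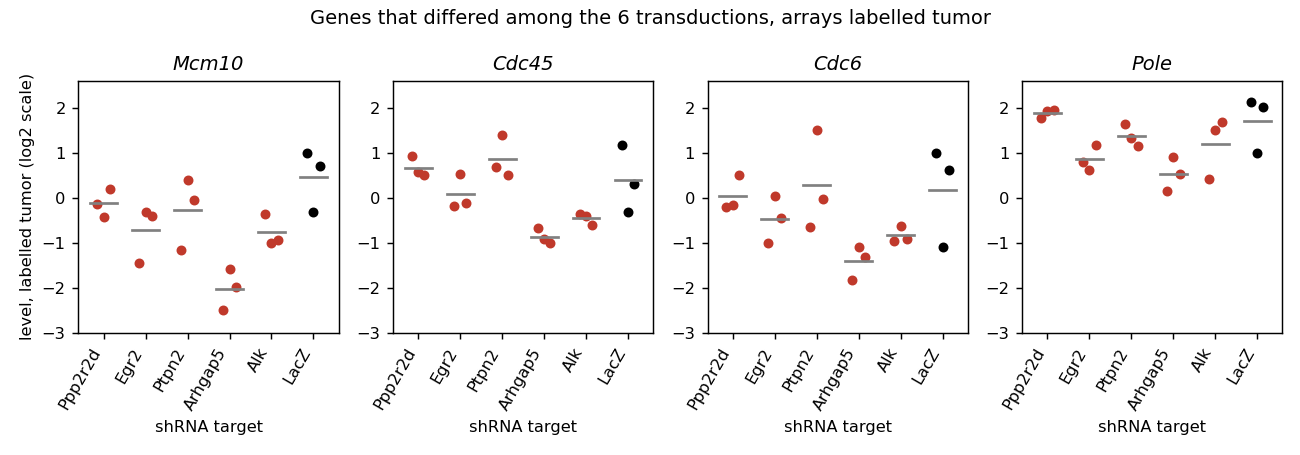
Level on each array labelled tumor (deposited log2 scale, vertical axis) of Mcm10, Cdc45, Cdc6 and Pole by shRNA target (horizontal axis), hairpins in red, LacZ in black and group means as grey lines. The Arhgap5 group has the lowest mean in all 4 panels, and LacZ array 2 is the lowest LacZ point in each.

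Neighbouring lists of the cycle were counted in the averaged tissue comparison. Of 34 measured other replication genes 31 were called lower in labelled tumor and 0 higher, with a median of -1.50. Claspin (Clspn), the checkpoint mediator at forks, changed by -3.70 ± 0.16, the nuclease and helicase Dna2 by -3.57 ± 0.11, Dscc1, of an alternative clamp loader, by -2.99 ± 0.17 and the chromatin helicase Hells by -2.79 ± 0.15. The 3 that were not called, named after their values were seen, were Orc3 (-0.04), Dbf4 (0.10) and Mcmbp (0.02). Of 16 checkpoint and repair genes 15 were lower, with a median of -1.99, among them Rad51ap1 (-4.41 ± 0.14), Exo1 (-3.92 ± 0.13), Brca1 (-3.85 ± 0.14) and Fancd2 (-3.23 ± 0.13). All 21 measured mitosis genes were lower, with a median of -3.36, beside -2.03 for the 40 replication genes. Nuf2, of the kinetochore, changed by -4.58 ± 0.13, the checkpoint kinase Bub1 by -4.42 ± 0.15, the spindle motor Kif11 by -4.35 ± 0.14 and Aurkb by -4.21 ± 0.13.

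Most genes of cycle entry were lower as well. Of 25 measured, 19 were called lower and 1 higher, against 33.1% and 37.6% of all genes, with a median of -1.16. Mybl2 changed by -4.09 ± 0.14, the repressor E2Fs E2f8 and E2f7 by -3.81 ± 0.18 and -3.57 ± 0.17, and cyclin A2 (Ccna2) by -3.49 ± 0.17, whereas cyclin D2 (Ccnd2), which acts in G1, rose by 0.36 ± 0.10. Of 14 cycle inhibitor and quiescence genes 6 were higher and 5 lower, near the 37.6% and 33.1% of all genes, with a median of 0.38 against 0.13 for all genes. Klf2, a factor of resting T cells, rose by 2.45 ± 0.14, with levels of 5.34 to 7.10 in labelled tumor against 3.24 to 4.71 in labelled spleen. The kinase inhibitors Cdkn1a (-2.24 ± 0.11), Cdkn2c (-1.47 ± 0.15) and Cdkn2a (-1.36 ± 0.11) were lower. The mean of Cdkn2a stood at the 31st percentile of all genes in labelled tumor and the 46th in labelled spleen. Other kinase inhibitors of the list, named after their values were seen, were divided. Cdkn1b was higher (0.40 ± 0.11), Cdkn2b was lower (-1.02 ± 0.15) and Cdkn2d was not called (0.23). Against LacZ in labelled tumor, 10 of the 21 mitosis genes were called lower with the Arhgap5 hairpin, against 0.297% of all genes, with a median of -1.28. With each of the other hairpins 0 were called, where at most 0.995% of all genes were. Their medians were 0.874 for Ptpn2, -0.685 for Alk, -0.409 for Egr2 and -0.011 for Ppp2r2d. In the tissue difference against LacZ, 7 mitosis genes were called lower with Arhgap5, against 0.824% of all genes. With Alk 4 were called lower, where 25.4% of all genes were called in either direction.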

How the data were processed

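RNA of 36 samples was read on single-channel Affymetrix 3′ arrays. The deposited log2 values were used as the authors gave them, and the submitters' processing notes name RMA. Its version and settings and the centring of arrays were not given in the sources used here. Control probe sets were left out, 34945 of the probe sets carried 1 gene symbol, and the one with the highest mean over 36 arrays stood for each of 18193 genes. In R 4.3.3 with limma 3.58.1 a model with 1 coefficient per group was fitted over all arrays (24 residual degrees of freedom). Genes were called under 0.05 after Benjamini-Hochberg adjustment over the whole table, two-sided, in 22 comparisons and 2 F tests, and intervals are those of the moderated fit. The procedure was tested on simulated data with falls planted in the Arhgap5 group labelled tumor. The simulated noise was independent for each gene and array, so arrays that stand apart were not covered. The members, the other lists and the alternatives were chosen with earlier results of these data known. All members may be named, the extremes of each role are shown by their range, and in each hairpin comparison the called genes or the 3 largest differences are named. From every other list the 4 called genes with the largest differences are named, with up to 3 called against the direction of most. The number of arrays limits the precision. Whether replicate numbers pair the arrays of the 2 labels was not stated in the labels. Residual correlations of arrays with the same number were -0.24 to 0.24 (18 pairs, 4 above 0.1), which cannot settle it. The alternatives were another choice of probe set, a filter on dim genes (40th percentile in at least 3 arrays), quantile, cyclic loess and median centring, array weights (the gene-by-gene method, since the default did not converge), fewer arrays, replicate blocks, another reference, a difference of at least 1 and leaving out each array.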

Additional observations from a re-analysis of the deposited data

Results flagged for a closer look

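Mcm10 differed between transductions in its tissue difference, by a test of the difference itself. Its change between labelled tumor and labelled spleen was more negative with the Arhgap5 hairpin than with LacZ by -2.415 on the log2 scale (limma adjusted p = 0.0128, 3 arrays a group). The call rests on the brightest of 3 probe sets. The other 2 gave -1.31 (adjusted p = 0.15) and -0.77 (adjusted p = 0.367), and it was also lost without LacZ array 1 labelled tumor (0.0679) and with only the arrays of the groups compared (0.0659).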

How the results depend on the processing

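The fall in labelled tumor kept its direction: over 90 alternatives of the 7 tissue comparisons other than leaving out an array, 30 to 40 of the genes were called. The next brightest probe set gave 1 or 2 genes called higher in 4 of the comparisons, and no other alternative gave any. Leaving out each array gave 39 to 40 for the mean of the transductions, 31 to 32 for Ppp2r2d, 33 to 39 for Egr2, 37 to 39 for Ptpn2, 38 for Arhgap5, 36 to 38 for Alk and 37 to 39 for LacZ. Leaving out each array gave, in labelled tumor, 0 to 1 called genes for Ppp2r2d, 0 for Egr2, 0 to 3 for Ptpn2, 1 to 4 for Arhgap5, 0 to 4 for Alk and 2 to 9 for the F test. In labelled spleen it gave 0 to 2 for Ppp2r2d, 0 to 1 for Egr2, 0 to 1 for Ptpn2, 0 to 3 for Arhgap5, 0 to 2 for Alk and 0 to 1 for the F test. For tissue differences against LacZ it gave 0 to 1 for Ppp2r2d, 0 for Egr2, 0 to 2 for Ptpn2, 0 to 3 for Arhgap5 and 0 to 3 for Alk. All counts in this paragraph, those between the labels included, stand without the share of all genes in the same fits.

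Hairpin counts depended on the setting, and the cause was not tested. The share of all genes called depended on it too, as given above for array weights. The counts below stand without that share, so they describe the settings and are no result about the replication genes. With array weights, calls in labelled tumor were 5 for Ppp2r2d, 3 for Egr2, 13 for Arhgap5, 12 for Alk and 29 for the F test, in labelled spleen 1 for Arhgap5 and 5 for the F test, and for tissue differences 6 for Arhgap5 and 6 for Alk. Without Egr2 array 2 and Ptpn2 array 3 labelled tumor and LacZ array 2 labelled spleen, the 3 arrays with the highest lowest value, calls in labelled tumor were 1 for Ppp2r2d, 1 for Ptpn2, 2 for Arhgap5, 3 for Alk and 14 for the F test, with 1 for Arhgap5 in labelled spleen and 2 for its tissue difference. Cyclic loess gave, in labelled tumor, 1 for Ppp2r2d, 2 for Ptpn2, 4 for Arhgap5 and 14 for the F test, in labelled spleen 4 for Ppp2r2d, 1 for Egr2, 2 for Ptpn2, 3 for Arhgap5, 2 for Alk and 3 for the F test, and tissue differences of 1 for Ptpn2 and 2 for Arhgap5. Quantile normalization gave, in labelled tumor, 2 for Ppp2r2d, 4 for Ptpn2, 3 for Arhgap5 and 13 for the F test, in labelled spleen 2 for Ppp2r2d, 1 for Egr2, 1 for Arhgap5, 2 for Alk and 1 for the F test, and 2 for the Arhgap5 tissue difference. With arrays centred on their gene median, which moved the median of all genes between the labels to 0.56, calls in labelled spleen were 6 for Ppp2r2d, 1 for Egr2, 3 for Arhgap5 and 4 for Alk, 2 for the F test in labelled tumor, and 1 each for the Ptpn2 and Alk tissue differences. The filter on dim genes gave 1 for Ppp2r2d and 2 for Arhgap5 in labelled tumor, and 2 for the Arhgap5 tissue difference.

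The mean of all probe sets gave 1 for Arhgap5 in labelled spleen and 1 each for the Ptpn2 and Alk tissue differences. The next brightest probe set gave 0 for Arhgap5 and 2 for the F test in labelled tumor, 1 for Ppp2r2d, 3 for Ptpn2 and 2 for Arhgap5 in labelled spleen, and tissue differences of 1 for Ptpn2, 0 for Arhgap5 and 3 for Alk. With the mean of the other 4 hairpins in place of LacZ, calls in labelled tumor were 4 for Ppp2r2d, 3 for Ptpn2 and 2 for Arhgap5. With only the arrays of the groups compared in the fit, calls were 1 for Alk and 0 for the F test in labelled tumor, 1 for the F test in labelled spleen and 0 for the Arhgap5 tissue difference. The replicate number as a block gave 2 for the F test in labelled tumor and moved no other count by over 1.5 times. Whether the numbers pair the arrays was not stated in the labels.

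Signs turned for single genes. Cdt1 between the labels was 0.17 with centred arrays and 0.63 with a dim probe set. Between the labels, dim probe sets also gave 0.15 for Chaf1b, 0.13 for Pole2, 0.11 for Prim2, 0.40 for Mcm6, 0.13 for E2f1, 0.23 for Pola2 and 0.47 for Pola1. In labelled tumor against LacZ, other probe sets gave Mcm10 values of 0.11 and 0.61 with Ptpn2, 0.34 with Alk and 0.38 with Egr2 (0.004 for the Egr2 tissue difference), and 0.13 for E2f1 with Alk. In labelled spleen they gave Rrm2 values of 0.29 and 0.082 with Arhgap5, 0.071 with Egr2 and 0.46 with Ptpn2, 0.10 for Fen1 with Ptpn2 and 0.13 for Mcm5 with Alk. With the other 4 hairpins in place of LacZ, Mcm10 was 0.019 with Alk, 0.067 with Egr2 and 0.64 with Ptpn2 and Cdc6 0.015 with Egr2 in labelled tumor, and Fen1 was 0.043 with Ptpn2 and Rrm2 0.051 with Egr2 and 0.086 with Ptpn2 in labelled spleen. Ccne2 with Ptpn2 in labelled tumor was 0.051 without Ptpn2 array 1 and -1.49 without Ptpn2 array 2, the range over arrays left out. Probe sets near background and 3 arrays a group limit what small differences can show.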
